A study of Mus musculus with 2 samples.

Results

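Bidirectional-promoter long noncoding RNAs (lncRNAs) are transcripts that start close to the start of a protein-coding gene and run away from it on the opposite strand. Of 214 mouse genes with at least 1 transcript of this annotated class, 13 were left out because they also have a lincRNA or antisense transcript, which left 201 candidates. The 53 candidates whose expected count reached 10 in both libraries are described here, out of 14596 genes that met the same minimum and 55536 annotated genes. None of the 16 genes named Gas5 or beginning with Snhg had met the transcript criteria. Detection by read count chose the members, so their levels are given as a description.

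Most active mammalian promoters recruit polymerase in both directions. In the coding direction the RNA is usually spliced, polyadenylated and exported, whereas the upstream RNA is often cut short at early polyadenylation sites and handed to the nuclear exosome, the main RNA-degrading complex of the nucleus. U1 snRNP, the spliceosome particle that binds 5′ splice sites, protects transcripts from early cleavage, and the Integrator and cap-binding ARS2 complexes help to end unprotected ones. A minority of upstream RNAs are stable enough to be annotated as lncRNA genes, and these share a promoter region with their coding neighbour.

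The RNA came from bone-marrow-derived macrophages (BMDM), phagocytes grown in culture from marrow cells, of strain C57BL/6J. Cells had received 100 ng/ml lipid A, the TLR4-stimulating part of bacterial endotoxin, for 12 h, then 12 h without it, and then a second exposure of 25 min at 100 ng/ml. Total RNA of the nucleoplasmic fraction, depleted of ribosomal RNA, was sequenced as 2 libraries, replicates 1 and 2, which form 1 group and carry the same donor entry. The labels name the fraction both nucleoplasmic and nuclear, and give no age or sex. No unstimulated, once-stimulated or cytoplasmic sample was analysed here, so none of the values is a response to lipid A or a nuclear enrichment, and the spread between the libraries may be technical.

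The libraries held 20196408 expected counts in replicate 1 and 19588980 in replicate 2, and started from 500 and 1000 ng of RNA, so replicate and starting amount cannot be told apart. All 8 macrophage markers on the list, among them Adgre1, Csf1r, Cd68, Lyz2, Itgam, Mertk and Fcgr1, lay at 1 TPM (an abundance corrected for transcript length and depth) or more in both libraries, with a summed level of 3317 and 2981 TPM. The 4 T-cell, 4 B-cell and 5 neutrophil markers summed to at most 0.28 TPM per cell type and library, with Cd3e, Cd3g and all 5 neutrophil markers at 0. Lists of 4 genes each for dendritic, erythroid and stromal cells summed to 1.51 to 3.02 TPM, where Ccr7, Alas2 and Pecam1 exceeded 1 TPM in both. With 2 libraries in 1 group, an exact two-sided sign-flip test cannot go below p = 0.5, so values are given per library or as mean ± SD (n = 2) and no test is reported.

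For 6 of the lncRNAs the promoter region shared with the coding gene is printed to show the sequence between the divergent starts, and for a seventh a window of the coding gene. The first 4 face abundant coding genes with roles in interferon, apoptosis or splicing, the next pair are the most abundant lncRNAs of the set, and the last faces an NF-kappaB subunit gene. Sequences are RefSeq promoter windows of build GRCm38.p6, 250 bases before to 50 after a RefSeq start, read 5′ to 3′ on the strand given. In the first 6, capitals run from one annotated gene start to the other, both included. The seventh window holds neither annotated gene start, which lie 1290 bases apart with overlapping 5′ ends. It lies inside the Nfkb2 gene around a RefSeq start 417 bases past the GENCODE one, and its capitals mark matches to the kappaB consensus. The windows are chr8:61927837-61928136 on the plus strand for Gm45418 and Ddx60, chr8:46739495-46739794 on the plus strand for Gm16675 and Irf2, chr17:33909195-33909494 on the plus strand for BC051226 and Daxx, and chr12:80945249-80945548 on the plus strand for Gm20337 and Srsf5. The others are chr11:119491097-119491396 on the plus strand for A930037H05Rik and Endov, chr7:92741410-92741709 on the minus strand for 4632427E13Rik and Rab30, and chr19:46304487-46304786 on the plus strand for Nfkb2, whose neighbour is AC114539.1.
Gm45418/Ddx60: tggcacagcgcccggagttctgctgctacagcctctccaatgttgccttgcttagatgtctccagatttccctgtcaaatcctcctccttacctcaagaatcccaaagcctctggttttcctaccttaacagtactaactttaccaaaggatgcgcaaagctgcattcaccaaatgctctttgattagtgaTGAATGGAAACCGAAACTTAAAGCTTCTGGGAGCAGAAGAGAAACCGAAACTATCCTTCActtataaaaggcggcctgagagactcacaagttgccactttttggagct
Gm16675/Irf2: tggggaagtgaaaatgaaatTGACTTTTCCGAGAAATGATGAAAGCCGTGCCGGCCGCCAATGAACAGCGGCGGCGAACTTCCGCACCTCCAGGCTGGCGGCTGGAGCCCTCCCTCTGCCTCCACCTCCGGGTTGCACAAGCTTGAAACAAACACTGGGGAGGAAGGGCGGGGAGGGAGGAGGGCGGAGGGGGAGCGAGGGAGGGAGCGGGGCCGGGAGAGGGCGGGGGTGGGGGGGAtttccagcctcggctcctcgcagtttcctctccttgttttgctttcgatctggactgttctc
BC051226/Daxx: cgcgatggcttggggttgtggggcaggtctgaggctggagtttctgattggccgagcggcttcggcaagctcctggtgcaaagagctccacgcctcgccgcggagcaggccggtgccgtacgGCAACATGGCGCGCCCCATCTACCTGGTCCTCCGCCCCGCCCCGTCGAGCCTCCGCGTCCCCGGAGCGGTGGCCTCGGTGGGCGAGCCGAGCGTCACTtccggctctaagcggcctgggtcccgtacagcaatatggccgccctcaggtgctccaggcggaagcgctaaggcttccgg
Gm20337/Srsf5: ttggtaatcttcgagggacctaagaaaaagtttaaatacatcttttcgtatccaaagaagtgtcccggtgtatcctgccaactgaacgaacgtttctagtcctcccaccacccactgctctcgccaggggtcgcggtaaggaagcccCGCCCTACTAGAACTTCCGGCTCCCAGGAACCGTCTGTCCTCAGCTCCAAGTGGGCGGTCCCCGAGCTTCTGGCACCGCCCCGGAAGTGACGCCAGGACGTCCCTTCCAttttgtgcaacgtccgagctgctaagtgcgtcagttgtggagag
A930037H05Rik/Endov: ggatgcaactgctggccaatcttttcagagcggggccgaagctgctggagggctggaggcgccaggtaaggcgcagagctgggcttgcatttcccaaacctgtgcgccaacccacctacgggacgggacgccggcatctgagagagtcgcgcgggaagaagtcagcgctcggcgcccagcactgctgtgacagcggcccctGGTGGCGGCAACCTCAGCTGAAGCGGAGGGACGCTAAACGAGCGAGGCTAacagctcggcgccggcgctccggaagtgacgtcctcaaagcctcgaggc
4632427E13Rik/Rab30: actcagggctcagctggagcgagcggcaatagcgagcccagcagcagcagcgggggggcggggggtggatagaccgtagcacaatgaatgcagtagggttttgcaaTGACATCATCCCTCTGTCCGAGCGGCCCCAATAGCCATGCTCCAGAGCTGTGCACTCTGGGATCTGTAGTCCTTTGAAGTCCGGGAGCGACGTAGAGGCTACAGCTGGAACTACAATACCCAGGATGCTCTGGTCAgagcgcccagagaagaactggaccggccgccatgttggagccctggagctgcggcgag
AC114539.1/Nfkb2: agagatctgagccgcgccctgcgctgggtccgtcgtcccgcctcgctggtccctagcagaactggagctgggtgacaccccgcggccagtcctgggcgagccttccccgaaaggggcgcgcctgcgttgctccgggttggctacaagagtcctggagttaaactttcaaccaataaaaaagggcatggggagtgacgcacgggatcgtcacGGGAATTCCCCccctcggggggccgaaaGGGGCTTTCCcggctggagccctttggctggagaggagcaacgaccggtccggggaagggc

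The starts of Gm45418 and Ddx60 were separated by 58 bases, those of A930037H05Rik and Endov by 48 and those of BC051226 and Daxx by 96. For Gm20337 and Srsf5 the spacer was 107 bases, for 4632427E13Rik and Rab30 it was 134, and for Gm16675 and Irf2 it was 216. The spacer of the Gm45418/Ddx60 pair contained GAAACCGAA at window positions 198 to 206 and again at 232 to 240, counted from 1 at the 5′ end. This nonamer matches GAAANNGAA, the core of the interferon-stimulated response element, and Ddx60 is an interferon-inducible helicase. The Gm16675/Irf2 window held 1 such match, GAAAATGAA at positions 10 to 18, just beyond the start of Gm16675. A match is a description of letters and not evidence of binding.

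Across the set, 28 of the 53 lncRNAs and 39 of 48 coding partners had a RefSeq promoter window, against 15072 of 22028 coding genes. Windows of a pair can overlap, so they are not independent. Some RefSeq starts lay far from the GENCODE start, such as 905 bases for 5830448L01Rik and 703 for Gm36371. Not every window therefore holds the annotated gene start or overlaps that of its partner. The ratio of observed to expected CG dinucleotides had a median of 0.841 in lncRNA promoters (range 0.375 to 1.11) and 0.902 in partner promoters, against 0.637 in all coding promoters. A ratio above 0.6, the usual mark of a CpG island, was reached by 24 of 28 lncRNA promoters (85.7%) and 36 of 39 partner promoters (92.3%), against 53.2% of all coding promoters. Median GC content was 66% and 67%, against 57.7%.

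The 8 motifs searched on both strands were those named below, and overlapping matches of different motifs were each counted. TATAAA, the TATA-box hexamer, was in 0 of 28 lncRNA promoters and in 1 of 39 partner promoters, that of Ddx60, against 11.9% of all coding promoters. GGGCGG, the Sp1 GC box, was in 17 lncRNA promoters (60.7%) and 30 partner promoters (76.9%), against 50.7%. CCGGAAG, an ETS-family site, was in 7 (25%) and 13 (33.3%), against 13%. CCAAT, the NF-Y box, was in 10 (35.7%) and 17 (43.6%), against 39%. TGANTCA, the AP-1 site, was in 4 (14.3%) and 1 (2.56%), against 6.71%. The NRF1 octamer GCGCATGC was in 1 (3.57%) and 0, against 4.03%. GAAANNGAA was in 1 (3.57%) and 4 (10.3%), against 8.05%, and the kappaB consensus in 2 (7.14%) and 4 (10.3%), against 9.36%. The shares with the last 2 motifs thus lay within a few percentage points of those of all coding promoters. These 2 motifs were added after the data were seen. In this descriptive comparison CpG richness, GC boxes and ETS sites were more frequent, and the TATA hexamer less frequent, in lncRNA and partner promoters alike. The AP-1 site was more frequent in lncRNA promoters but less frequent in partner promoters, and these counts are small. The background took coding genes whether or not they were detected here. Detected coding genes alone were not compared, and whether expression accounts for the differences was not tested.

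**Figure D1:**
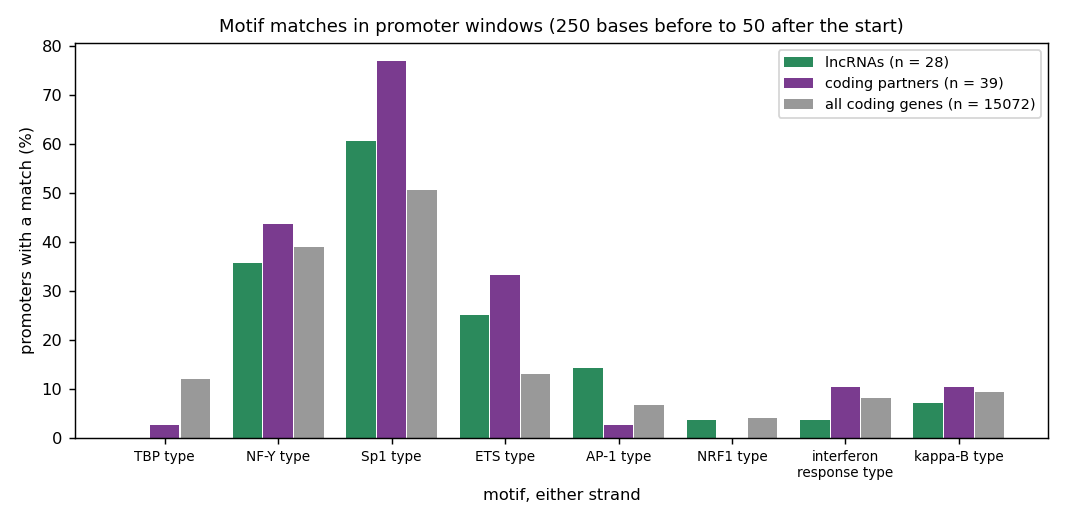
Percentage of promoter windows with at least 1 match to each of 8 motifs, on either strand, for 28 lncRNAs, 39 coding partners and 15072 coding genes. The bars of the lncRNAs and partners exceed those of all coding genes for the Sp1 and ETS types and lie below them for the TBP type, the TATA-box hexamer, where the lncRNA bar is at 0.

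Detection of the class was between that of other noncoding classes and coding genes. Of the 201 bidirectional-promoter lncRNA genes 26.4% met the count minimum, against 7.72% of 6047 lincRNA genes, 20.8% of 3068 antisense genes and 51.7% of 22028 protein-coding genes. Just inside the minimum lay AC126937.2 with 10.91 and 10.28 expected counts in replicates 1 and 2, Gm32031 with 11 and 14, and Gm26910 with 16 and 11. Just outside it lay Gm16196 with 9 and 17, 4930432B10Rik with 9 and 14, and Gm47962 with 8 and 13. Of the 148 candidates under the minimum, 65 had 0 counts in both libraries, which allows a share of up to 1.49e-05% of the counts of replicate 1 and 1.53e-05% of replicate 2. These limits, like the intervals given later, cover counting error only.

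The detected lncRNAs were scarce as a group. Together they held 13276 expected counts in replicate 1 and 13510 in replicate 2, which was 0.0659% and 0.0690% of all counts. Their median level was 1.63 ± 0.156 TPM (SD, n = 2), against 1.76 ± 0.205 TPM for 467 detected lincRNA genes, 2.02 ± 0.0849 TPM for 637 detected antisense genes and 8.59 ± 1.08 TPM for 11383 detected coding genes. In bulk RNA, fewer cells with a transcript and less of it per cell cannot be told apart. On the log2(TPM + 1) scale the difference of medians was -0.07 ± 0.02 from the lincRNA genes and -0.20 ± 0.04 from the antisense genes, and the sign of both depended on the normalisation or filter. By mean level, 6 lncRNAs reached 10 TPM, 33 lay between 1 and 10 TPM and 14 lay below 1 TPM. A930037H05Rik alone held 45.4% and 50.4% of the counts of the set in replicates 1 and 2.

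**Figure D2:**
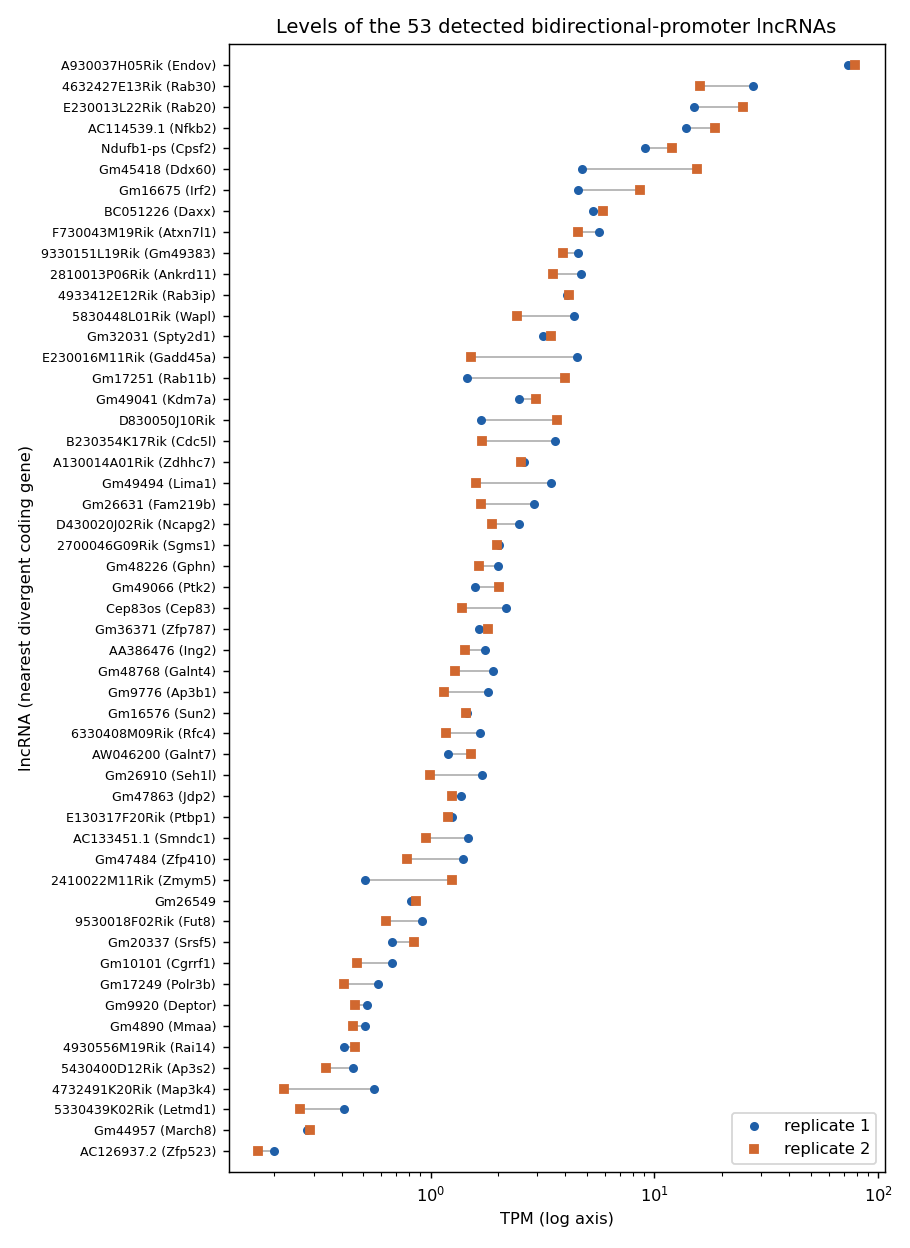
TPM of each of the 53 detected lncRNAs in replicate 1 (circles) and replicate 2 (squares) on a log axis, ordered by mean, with the nearest divergent coding gene in parentheses for all but 2. A930037H05Rik stands above the rest at 73.6 and 78.5 TPM, and the lowest, AC126937.2, lies at 0.2 and 0.17 TPM.

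The class label itself rests on a start near a coding gene on the other strand, so the positions below describe the annotation. Of all 201 candidates, 183 had such a coding gene within 1000 bases. A coding gene on the opposite strand started within 1000 bases for 48 of the 53 lncRNAs, with a median distance between gene starts of 163 bases (range 19 to 858). In 32 of these pairs the genes were separated by a gap and in 16 their 5′ ends overlapped. The other 5 were AC114539.1, Ndufb1-ps, 4933412E12Rik, AW046200 and Gm9920, whose gene start lay more than 1000 bases inside the coding gene, and for 4 of them individual transcripts did start within 1000 bases of each other. The annotated gene type was bidirectional_promoter_lncRNA for 47 genes and processed_transcript for 6. The leading transcript, the one with the most counts, was of another type in 5 genes, namely retained_intron in E230016M11Rik, Gm49494, 4930556M19Rik and Gm44957 and processed_transcript in Gm9920. In Gm49494 and Gm44957 transcripts of the class held 0% of the counts, so all values given for these 2 genes are those of retained-intron transcripts. The class held 16.3% of the counts of E230016M11Rik, 26.4% of 4930556M19Rik and 34.9% of Gm9920. Transcripts of the class took 75.6 ± 0.164% of the counts of the set, or 97.7% without A930037H05Rik, whose counts were shared about equally between its leading transcript (48.8%) and a retained-intron transcript.

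In structure the lncRNAs were simple. Of 53 leading transcripts, 23 had 1 exon (43.4%), against 23.3% of detected lincRNA genes, 21.4% of antisense genes and 4.15% of coding genes. Their median length was 2177 bases, against 2132 bases for lincRNA, 1698 for antisense and 3112 for coding leading transcripts. The polyadenylation hexamer AATAAA stood in the last 50 bases of 52.8% of them, against 43% of lincRNA, 37.5% of antisense and 62.6% of coding transcripts. With its common variant ATTAAA also allowed the shares were closer, 56.6% against 53.5%, 51% and 77%. Only 1 annotated transcript existed for 30 of the 53 genes.

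Strand has to be considered before single values, because the sources used here do not give the strand setting of the counting. Exons of 27 of the 53 lncRNAs lay in part over exons of genes on the other strand, and for 20 of them over exons of their own partner. Reads from these stretches cannot be told apart without strand. As a check, 20 noncoding genes lying at least 80% within other-strand exons of coding genes at 50 TPM or more were examined. Of these, 14 stayed under 10% of the coding level in both libraries, including 3 at 0 counts in both. Another 3 lay between, and 3 reached the coding level in at least 1 library, so this check did not settle the setting. Some pairs nevertheless shared fractional counts. E230013L22Rik had 487.25 and 906.93 in replicates 1 and 2 and Rab20 647.75 and 852.07, so their fractions completed whole numbers. The same held for E230016M11Rik (151.85 and 59.04) and Gadd45a (177.15 and 164.96), but not for AC114539.1 and Nfkb2. Where fractions matched in this way, reads appear to have been divided between genes on opposite strands. Values for the 26 lncRNAs without exon overlap are therefore given separately for the comparisons of levels. Overlap was counted between exons only, so an lncRNA lying over an intron of the other strand counted as free of it. For example, 4933412E12Rik started 1012 bases inside the Rab3ip gene but had 0 bases over other-strand exons. Reads from introns of other-strand genes were not examined, so these 26 may also hold reads of the other strand.

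Most lncRNAs were far less abundant than the coding gene across the promoter. In the 48 pairs the median of lncRNA minus partner was -2.56 ± 0.13 on the log2(TPM + 1) scale (SD, n = 2), with -2.65 in replicate 1 and -2.46 in replicate 2. It was -1.70 in the other deposited table, which has the column layout kallisto writes, from -2.25 in replicate 1 and -1.15 in replicate 2. TPM in that table fell from replicate 1 to replicate 2, with a median log2 ratio of -2.28 over detected genes. In the TPM values used throughout, the lncRNA was lower in both libraries in 44 pairs and higher in both in 3. Of these lncRNAs, 22 had under 10% of the TPM of their partner. Restricting the pairs to the 25 lncRNAs without exon overlap gave -2.88 ± 0.29, with 23 lower in both libraries. Head-to-head pairs with a gap had a median of -2.77 ± 0.15 and pairs with overlapping 5′ ends -2.24 ± 0.10. Distance made no ordered series, with medians of -2.38 for the 17 pairs within 100 bases, -2.19 for the 17 from there to 250 bases and -2.68 for the 14 beyond.

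**Figure D3:**
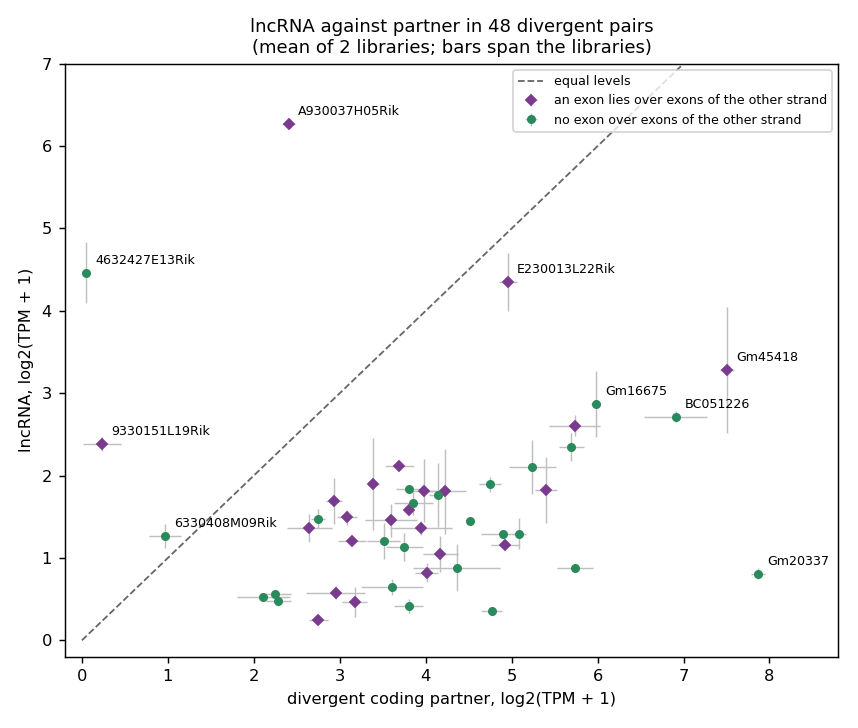
Level of each lncRNA against its divergent coding partner in 48 pairs, as log2(TPM + 1), mean of 2 libraries, with bars spanning the libraries. Points below the dashed line of equal levels are lncRNAs lower than their partner (44 of 48 in both libraries), and 4632427E13Rik, A930037H05Rik and 9330151L19Rik stand above it.

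Levels within a pair were only loosely related. Across the 48 pairs Pearson's r of log2(TPM + 1) was -0.10 in replicate 1 and 0.15 in replicate 2, and Spearman's rho was 0.15 and 0.29. These describe pairs that share a library, and pairs are not independent replicates.

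The partners themselves were well expressed. Partners of detected lncRNAs had a median of 13.4 ± 2.69 TPM (SD, n = 2), against 3.49 ± 0.658 TPM for the 135 partners of candidates under the minimum and 8.59 ± 1.08 TPM for all detected coding genes. On the log2(TPM + 1) scale their median stood 0.58 ± 0.11 above that of all detected coding genes. Of 48 partners of detected lncRNAs, 45 met the count minimum, against 94 of 135 partners of undetected ones. The 3 that did not were Rab30, Gm49383 and Rfc4. Over all 183 pairs, the lncRNA was detected in 3 of 52 pairs (5.77%) whose partner averaged under 1 TPM, 13 of 49 (26.5%) from 1 to under 10 TPM, 21 of 53 (39.6%) from 10 to under 30 TPM and 11 of 29 (37.9%) at 30 TPM or more. Detection was thus lowest beside partners under 1 TPM and did not go on increasing above 10 TPM. These pairs were not split by exon overlap, so whether partner reads helped candidates to reach the minimum was not tested.

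**Figure D4:**
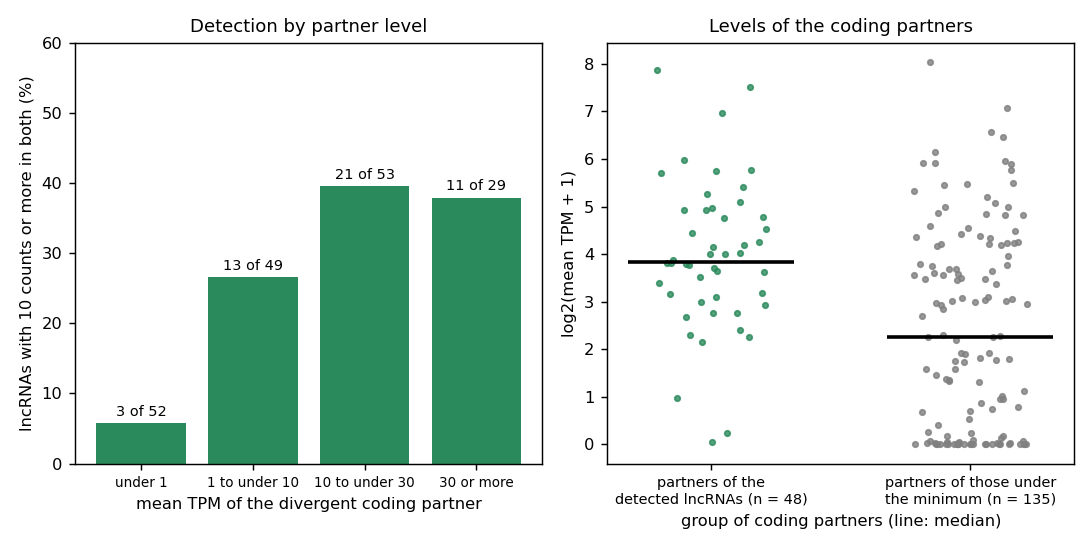
Left, percentage of candidate lncRNAs that met the count minimum, by mean TPM of the coding partner, with counts above the bars (3 of 52 at the low end, 11 of 29 at the high end). Right, log2(mean TPM + 1) of partners of the 48 detected and of the 135 undetected candidates, with a line at each median.

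In 3 pairs the lncRNA was the more abundant RNA in both libraries. A930037H05Rik (chr11:119448788-119491298, minus strand) had 73.6 and 78.5 TPM in replicates 1 and 2, against 4.03 and 4.58 TPM for Endov, an endonuclease that cleaves inosine-containing RNA. Its replicate values were close, and the difference was 3.86 ± 0.04 on the log2(TPM + 1) scale. Of its 9082 exonic bases, 1476 lay over exons of genes on the other strand, chiefly Rnf213, a large interferon-inducible ubiquitin ligase at 743.5 and 757.7 TPM, and the part of Rnf213 reads in its count was not tested. 4632427E13Rik (chr7:92734166-92741468, minus strand) had 27.59 and 16.06 TPM, against 0.04 and 0.03 TPM for Rab30, a small GTPase of the Golgi with 7 and 5 counts. The lncRNA had no exon over other-strand exons, and the difference was 4.42 ± 0.52. In the kallisto-layout table the difference was 2.75 by mean, from 3.79 in replicate 1 and 1.72 in replicate 2. 9330151L19Rik had 4.55 and 3.9 TPM, against 0.01 and 0.37 TPM for the coding model Gm49383, with 1107 bases over exons of Dnaaf2, a dynein-assembly factor at 1 and 1.07 TPM. Its difference of 2.15 ± 0.44 was 1.34 in the kallisto-layout table, from 1.95 in replicate 1 and 0.72 in replicate 2. The fourth pair above equality by mean, 6330408M09Rik with 1.66 and 1.17 TPM against 0.72 and 1.22 TPM for the replication factor subunit Rfc4, did not keep 1 direction over the libraries.

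Partners were also grouped by textbook role, after their names and values were known. The 7 lncRNAs beside immune and stress genes were all lower than their partner in both libraries, and their median was 5.58 TPM. AC114539.1 had 13.82 and 18.7 TPM, against 23.49 and 30.77 TPM for Nfkb2, which encodes the p100 precursor of the noncanonical NF-kappaB pathway. Its exons covered 531 bases of Nfkb2 exons, its gene start lay 1291 bases inside that gene, and its nearest transcript start was 85 bases from one of Nfkb2. In the printed Nfkb2 window kappaB matches lay at positions 212 to 222 and 240 to 249, which are 378 to 388 and 406 to 415 bases past the GENCODE start of Nfkb2. Gm45418 had 4.73 and 15.5 TPM, against 171.3 and 192 TPM for Ddx60, and 325 of its exonic bases lay over the noncoding gene 4930512H18Rik. Gm16675 had 4.54 and 8.64 TPM, against 64.51 and 59.82 TPM for Irf2, a transcription factor that represses interferon-stimulated genes, with no exon overlap.

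BC051226 had 5.3 and 5.86 TPM, against 92.21 and 154.3 TPM for Daxx, a histone H3.3 chaperone and apoptosis regulator. E230016M11Rik had 4.5 and 1.52 TPM, against 9.99 and 9.01 TPM for the growth-arrest and DNA-damage gene Gadd45a, with 337 bases over Gadd45a exons. Gm47863 beside Jdp2, a repressor of the AP-1 family, had 1.37 and 1.25 TPM against 6.92 and 8.88 TPM. Gm44957 beside March8, a membrane ubiquitin ligase, had 0.28 and 0.29 TPM against 28.57 and 24.06 TPM. Levels within this group thus ran from 0.285 TPM for Gm44957 to 16.3 TPM for AC114539.1 by mean. A list of 177 immune genes, against 22028 annotated coding genes in all, held Irf2 within 1000 bases and Nfkb2 beyond as partners, and no other. Whether this is more or fewer than the size of the list would give was not tested.

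Beside 7 genes of RNA processing and the nuclear envelope, lncRNAs ranged from 0.755 to 10.6 TPM by mean and partners from 10.4 to 233.3 TPM. Gm20337 had 0.67 and 0.84 TPM, against 246.2 and 220.4 TPM for Srsf5, an SR protein of splicing, and this difference of -7.06 ± 0.21 was the largest of the 48 pairs in this table. In the kallisto-layout table Gm20337 averaged 4.05 TPM and the difference was -4.38. Ndufb1-ps had 9.08 and 12.02 TPM, against 11.13 and 9.6 TPM for Cpsf2, a subunit of the cleavage and polyadenylation complex, so the order differed between libraries. The suffix of its name is one used for pseudogenes, and whether another gene shares its sequence or reads was not examined. The others were B230354K17Rik beside the spliceosome factor Cdc5l, Gm16576 beside Sun2, Gm26910 beside the nucleoporin Seh1l, E130317F20Rik beside the splicing repressor Ptbp1 and AC133451.1 beside Smndc1, and each was lower than its partner in both libraries.

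All 13 lncRNAs beside transcription and chromatin genes were lower than their partner in both libraries, with a median of 1.73 TPM against 20.8 TPM. F730043M19Rik had 5.67 and 4.57 TPM against 64.18 and 42.31 TPM for Atxn7l1, and 2810013P06Rik had 4.7 and 3.51 TPM against 56.36 and 45.72 TPM for Ankrd11, a chromatin regulator. 5830448L01Rik had 4.39 and 2.44 TPM against 44.68 and 30.35 TPM for Wapl, which releases cohesin from chromatin. These pairs showed highly expressed regulators with an upstream RNA near or under 10% of their level. Others in the group were Gm32031 (Spty2d1), Gm49041 (Kdm7a), D430020J02Rik (Ncapg2), Gm36371 (Zfp787), AA386476 (Ing2), Gm47484 (Zfp410), 2410022M11Rik (Zmym5), Gm17249 (Polr3b) and AC126937.2 (Zfp523), between 0.185 and 3.32 TPM by mean.

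Vesicle-traffic genes were the partners of 6 lncRNAs, 4 of them lower than their partner in both libraries. Beside 4632427E13Rik, these included E230013L22Rik with 14.99 and 24.96 TPM, against 27.83 and 32.47 TPM for Rab20, a GTPase of phagosome maturation, with 356 bases over Rab20 exons. 4933412E12Rik had 4.07 and 4.14 TPM, against 1 and 1.64 TPM for Rab3ip, an exchange factor for Rab GTPases whose gene start lay 1012 bases away. Gm17251 (Rab11b), Gm9776 (Ap3b1) and 5430400D12Rik (Ap3s2) averaged 2.73, 1.48 and 0.395 TPM. The 4 beside kinase and signalling genes, among them Gm49066 (Ptk2), Gm9920 (Deptor) and 4732491K20Rik (Map3k4), and the 7 beside enzymes of glycosylation, lipid and cofactor metabolism were all lower than their partner in both libraries. The lncRNAs beside those enzymes were A130014A01Rik (Zdhhc7), 2700046G09Rik (Sgms1), Gm48226 (Gphn), Gm48768 (Galnt4), AW046200 (Galnt7), 9530018F02Rik (Fut8) and Gm4890 (Mmaa), at 0.48 to 2.57 TPM. The remaining pairs were Gm49494 (Lima1), Gm26631 (Fam219b), Cep83os (Cep83), Gm10101 (Cgrrf1), 4930556M19Rik (Rai14) and 5330439K02Rik (Letmd1), with lncRNAs at 0.335 to 2.52 TPM by mean.

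The replicates were compared gene by gene. On the TPM scale 4 lncRNAs were over 2-fold higher in replicate 2 than in replicate 1 and 4 were over 2-fold lower, against a background over all detected genes of 2.44% higher and 8.8% lower, or 11.2% in either direction. After TMM normalisation of counts 6 were higher and 2 lower, against 4.88% and 2.95%, or 7.84% in either direction. The 8 of 53 on either scale are a small count, and TPM itself shifted between libraries, with a median log2 ratio of -0.28 over all detected genes and -0.18 over the lncRNAs. On the TMM scale these medians were 0.00 and 0.07.

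In TPM Gm45418 differed most, with 40.27 counts in replicate 1 and 91.11 in replicate 2, a log2 ratio of 1.71 in TPM and 1.33 in TMM-normalised CPM (95% counting interval 0.78 to 1.90), while Ddx60 had a TPM ratio of 0.16. Most of this lay in its 361-base transcript Gm45418-201, with 0 and 40.14 counts, or 0 and 10.44 TPM. Its transcript Gm45418-202 had 40.27 and 50.97 counts, or 4.73 and 5.06 TPM. Gm16675 had 109 and 227 counts and a CPM ratio of 1.20 (0.87 to 1.54), and in TPM its ratio was 0.93, against -0.11 for Irf2. E230013L22Rik had a CPM ratio of 1.04 (0.88 to 1.20), D830050J10Rik one of 1.03 (0.53 to 1.54) and AC114539.1 one of 0.74 (0.56 to 0.92). The difference of D830050J10Rik also lay in 1 transcript, D830050J10Rik-201 with 0 and 46.21 counts, while D830050J10Rik-202 had 53.01 and 51.8. In the other direction E230016M11Rik had 151.9 and 59.04 counts and a CPM ratio of -1.22 (-1.68 to -0.78), B230354K17Rik -0.84 (-1.16 to -0.53), Gm49494 -0.79 (-1.46 to -0.13), Gm47484 -0.56 (-1.09 to -0.04) and 5830448L01Rik -0.53 (-1.02 to -0.04). The 3 lncRNAs with fewer counts that passed 2-fold in TPM were Gm17251 with 20.25 and 64.39 counts, 2410022M11Rik with 17 and 47, and 4732491K20Rik with 33 and 14, and in CPM the ratios of Gm17251 (1.81) and 2410022M11Rik (1.61) exceeded that of Gm45418. The partner stayed within 2-fold for 7 of these 8, the exception being Zmym5 at -1.06. Over 45 pairs the replicate ratios of lncRNA and partner had a Pearson's r of 0.15 and a Spearman's rho of 0.26, as a description.

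**Figure D5:**
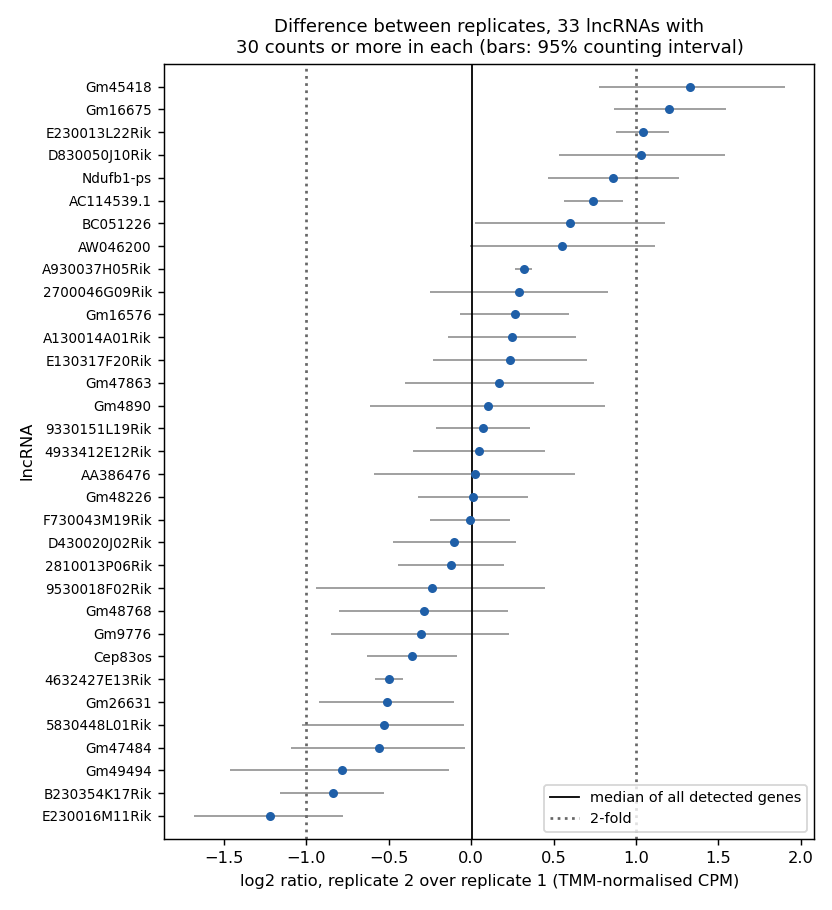
Log2 ratio of replicate 2 over replicate 1 in TMM-normalised CPM for the 33 lncRNAs that reached 30 expected counts in both libraries, with 95% intervals that cover counting error only. Gm45418, Gm16675, E230013L22Rik and D830050J10Rik lie beyond the dotted 2-fold line on the right and E230016M11Rik beyond it on the left.

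RNAs of the machinery known to limit upstream transcripts, and of U1 proteins, whose particle protects transcripts from early cleavage, were measured in the same libraries. Of 62 listed factors 58 were found in the annotation, and 57 of these reached 1 TPM in both libraries, the exception being Exosc6 at 0. Among 11383 detected coding genes, which were chosen by count, 86.7% reached 1 TPM in both, and their median was 8.59 ± 1.08 TPM. The medians of the exosome and cap-binding genes given below were lower than that. Cleavage, polyadenylation and termination factors had a median of 20.4 ± 3.34 TPM over 17 genes, led by the poly(A) polymerase Papola with 73.15 and 56.85 TPM and by Pcf11 with 57.85 and 57.8 TPM. The 18 exosome genes and adaptors had a median of 6.32 ± 0.244 TPM, with the NEXT adaptor Rbm7 at 51.81 and 46.19 TPM and Zfc3h1, of the poly(A) tail exosome targeting complex, at 54.46 and 35.93 TPM. The 14 Integrator genes had 9.27 ± 2.56 TPM and were led by Ints6 at 36.94 and 27.36 TPM. The 6 cap-binding and ARS2 genes had 7.18 ± 1.82 TPM, with Srrt, which encodes ARS2, at 65.1 and 55.88 TPM, and the 3 U1 protein genes had a median of 15.3 ± 4.91 TPM, with Snrnp70 at 68.97 and 68.67 TPM. These are levels in 1 condition, and whether they set the level of any lncRNA was not tested.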

How the data were processed

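Gene and transcript levels were taken from the tables of 2 RNA-seq libraries. The deposited expected counts (per the file headers, in the column layout RSEM writes) came from alignments to the mm10 transcriptome with GENCODE M21, and the deposited TPM values, with a posterior mean TPM, stand in the same tables. A further deposited transcript table in kallisto layout gave estimated counts and TPM. The program and the strand setting: not given in the sources used here. Pooling of samples was not recorded.

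Computed here were levels as log2(TPM + 1), medians per library, and their mean and SD over 2 libraries. Genes had to reach 10 expected counts in both. A partner was the protein-coding gene on the other strand with the nearest divergent start, within 1000 bases. Expected counts were rounded for TMM factors (edgeR 4.0.16) and DESeq2 1.42.0 size factors, in R 4.3.3; Python 3.11.15, numpy 2.4.6, pandas 2.3.3 and scipy 1.17.1 did the rest. Intervals are 95% and exact for counts. The calculations were checked on simulated data. No p-values were computed.

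Entries that name no annotated gene held 0.282% of counts in replicate 1 and 0.0640% in replicate 2 and were left out. RefSeq promoters (GRCm38.p6) were matched by symbol or gene ID, taking the start nearest the GENCODE one on the same strand within 2000 bases. The named lncRNAs were the 12 highest by mean TPM, the 5 lowest and 5 highest against their partner, the 5 moving most each way between replicates among those with 30 counts or more in each, those with a partner in the immune list, and the 3 on either side of the minimum. None of 16 preset lncRNA names was a member. Others were named after their values were seen. The coding partners of 2 lncRNAs and 1 marker gene are not reported here. The members and lists were chosen with earlier results of these data known.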

Additional observations from a re-analysis of the deposited data

How the results depend on the processing

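No paired analysis was possible because the libraries form 1 group. All alternatives below kept lncRNAs under partners: the median difference of -2.56 became -1.70 with kallisto-layout TPM, -3.50 with TMM-normalised CPM, -3.18 with a pseudocount of 0.1, -2.18 at 50 counts or more, -2.79 without a filter, and -2.40 and -2.34 with partners within 500 and 2000 bases; with choices made after seeing the data it was -2.88 without exon overlap and -2.41 by transcript starts. Partners minus all coding genes gave 0.46, 0.82, 0.31 and 0.95 with kallisto-layout TPM, CPM, 50 counts and no filter, and 0.79 without overlap. The members' median level was 1.19 TPM by kallisto layout (1.96 in replicate 1 and 0.41 in replicate 2), 2.82 in CPM, 2.73 TPM at 50 counts and 0.76 TPM without a filter. Members minus lincRNA genes reversed to 0.033 in CPM and 0.16 without a filter, and was -0.31 by kallisto layout, -0.10 with a pseudocount of 0.1, -0.83 at 50 counts and -0.14 without overlap. Members minus antisense genes reversed to 0.20 in CPM, and was -0.30, -0.39, -0.11 and -0.28 with the pseudocount of 0.1, 50 counts, no filter and no overlap. The median replicate ratio of -0.18 reversed to 0.075 by TMM, 0.049 by DESeq2 factors and 0.051 without a filter, and was -2.14 by kallisto layout, where 52 members and 98.3% of all genes were over 2-fold apart. At 50 counts 3 members were over 2-fold apart and without a filter 33, with 26 and 105 lncRNAs tested. The share on transcripts of the class was 79.7% in kallisto layout and 97.7% without the highest member. Of single pairs, 6330408M09Rik minus Rfc4 (0.30) reversed to -0.017 with posterior mean TPM and -0.69 by kallisto layout, and ran from -0.033 without replicate 1 to 0.63 without replicate 2, and Ndufb1-ps minus Cpsf2 (0.015) reversed to -3.19 in CPM, and ran from -0.27 without replicate 2 to 0.30 without replicate 1. CPM is not divided by length and filters change the genes compared; other causes were not tested. Leaving out either library gave -2.65 to -2.46 for members minus partners. A promoter window of 500 bases and hexamers downstream of the starts were not run, since no genome was used here.

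Depth is a limit, since 38 of 53 lncRNAs had under 100 counts in at least 1 library.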

Other observations

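Several abundant coding genes had an annotated divergent lncRNA that stayed under the count minimum. 0610009L18Rik had 7 and 27 expected counts in replicates 1 and 2, against 241.2 and 284 TPM for Actg1, the cytoplasmic gamma-actin gene whose start lay 136 bases away. 4930583K01Rik had 0 counts in both libraries, against 104 and 69.45 TPM for Smg1, a kinase of nonsense-mediated decay. Gm16196 had 9 and 17 counts, against 63.19 and 53.42 TPM for the splicing factor Srsf3, whose relative Srsf5 stood beside the detected Gm20337. In all, 45 of 135 undetected candidates had a partner at 10 TPM or more in both libraries, and 26 had 0 counts beside a partner that met the minimum. Partners of the detected lncRNAs had a median of 13.4 TPM (n = 48), against 10.8 TPM for partners of candidates above 0 but under the minimum (n = 77) and 0.0525 TPM for partners of candidates at 0 counts in both libraries (n = 58).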
